A study of Rattus norvegicus with 10 samples.

Results

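The genes described here are 35 interferon response and antigen processing genes, named by a list and matched to the array by gene symbol. Of the 35, 32 had a probe set of their own, out of 14217 genes measured, and a gene with several was represented by the probe set that was brightest on average over the 10 arrays. The 3 without one were Oas1i, Oas2 and Ddx58. Oas1i shared a probe set with Oas1g, and the gene listed as Ddx58 was annotated on the array as Rig1, which the match by symbol missed.

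Liver RNA came from Harlan Sprague Dawley rats, with 1 Affymetrix rat genome expression array per animal. Each group had 5 animals. The HMB group ate feed with 10000 ppm of HMB (2-hydroxy-4-methoxybenzophenone, or oxybenzone, an ultraviolet filter of sunscreens) for 13 weeks, and the control group ate feed with 0 ppm. All were kept 5 to a cage on the same base diet, and sex, age and cage were not given per animal, so a cage shared by a group and the treatment cannot be told apart. HMB 1 was titled and labelled as HMB but carried a dose label of 0 ppm, and it was kept in the HMB group. Because whole liver was measured, fewer cells of a type and less RNA per cell cannot be told apart.

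Interferons are secreted signals of infection. Type I interferons act through receptors, JAK kinases and transcription factors, STAT2 and IRF9 among them, on the interferon-stimulated response element (ISRE) in promoters, and interferon gamma acts on the gamma-activated site (GAS). The induced genes encode viral RNA sensors, antiviral effectors, chemokines that draw lymphocytes, and the immunoproteasome and peptide transporter that supply MHC class I. Liver holds both hepatocytes and many resident macrophages, the Kupffer cells, and both cell types respond to interferon.

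HMB 3, 4 and 5 stood apart from the other 7 arrays in poly-A spike-in signal and in the 3' minus 5' signal of GAPDH. In that of beta-actin only HMB 4 lay above the controls. Poly-A spike-in signal minus hybridisation control signal (log2) ran from -2.19 to -1.90 in controls, was -1.92 in HMB 1 and -1.96 in HMB 2, and ran from -1.78 to -1.47 in HMB 3 to 5. The 3' minus 5' signal of GAPDH ran from 1.38 to 1.77 in controls, was 1.31 in HMB 1 and 1.38 in HMB 2, and ran from 1.90 to 2.09 in HMB 3 to 5. That of beta-actin ran from 3.25 to 3.64 in controls and was 3.16, 3.18, 3.62, 3.96 and 3.58 in HMB 1 to 5. The median log2 difference of the 32 genes, HMB minus control, was -0.22 with all arrays, -0.22 without HMB 3, 4 and 5 and -0.20 without HMB 1 and 2. A fit with the poly-A measure as a covariate gave a median of -0.32.

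Promoter sequences are shown because most of these genes share the ISRE letters. Whether these letters go with the way the members varied across the animals was not tested. Windows of 300 bases, 250 before and 50 after each gene's start, came from RefSeq on build GRCr8 and matched 25 of the 32 genes. The ISRE core (GAAA, then any 2 bases, then GAAA), read on both strands, stood in 17 of the 25 windows (68%), against 3.77% of all 27457 windows of that length. It was found in 9 of 12 windows of antiviral effectors, 5 of 6 of antigen processing genes, 1 of 4 of transcription factors, 1 of 2 of chemokines and the 1 window of a sensor. The GAS letters TTCNNNGAA, which read the same on both strands, stood in 8 of the 25 (32%), against 8.68% of all windows. The matches to both motifs overlapped in Bst2. The 4 windows below belong to the genes with the most negative differences between the groups among the 17 with an ISRE core in a window. Mx2, Usp18 and Isg15 had no window. Capitals mark the ISRE core. They lie at chr12:41330216-41330515 on the plus strand for Oas1a, chr20:4656982-4657281 on the minus strand for Psmb8, chr1:205799974-205800273 on the minus strand for Irf7 and chr12:41395803-41396102 on the minus strand for Oas1b.
Oas1a: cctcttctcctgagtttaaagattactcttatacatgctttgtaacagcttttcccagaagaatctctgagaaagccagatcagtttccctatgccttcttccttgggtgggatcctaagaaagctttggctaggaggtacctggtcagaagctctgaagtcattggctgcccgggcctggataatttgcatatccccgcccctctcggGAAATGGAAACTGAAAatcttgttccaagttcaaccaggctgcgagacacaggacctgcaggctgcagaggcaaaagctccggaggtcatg
Psmb8: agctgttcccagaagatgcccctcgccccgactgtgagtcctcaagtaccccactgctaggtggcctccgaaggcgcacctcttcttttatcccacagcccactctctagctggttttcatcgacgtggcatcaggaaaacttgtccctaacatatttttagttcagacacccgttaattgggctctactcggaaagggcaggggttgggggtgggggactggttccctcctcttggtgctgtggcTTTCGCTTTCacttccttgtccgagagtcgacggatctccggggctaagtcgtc
Irf7: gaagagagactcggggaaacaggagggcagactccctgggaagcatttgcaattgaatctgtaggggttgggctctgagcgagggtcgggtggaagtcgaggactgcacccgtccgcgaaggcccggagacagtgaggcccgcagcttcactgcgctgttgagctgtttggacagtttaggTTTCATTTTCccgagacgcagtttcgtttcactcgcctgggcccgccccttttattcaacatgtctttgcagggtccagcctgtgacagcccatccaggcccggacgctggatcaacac
Oas1b: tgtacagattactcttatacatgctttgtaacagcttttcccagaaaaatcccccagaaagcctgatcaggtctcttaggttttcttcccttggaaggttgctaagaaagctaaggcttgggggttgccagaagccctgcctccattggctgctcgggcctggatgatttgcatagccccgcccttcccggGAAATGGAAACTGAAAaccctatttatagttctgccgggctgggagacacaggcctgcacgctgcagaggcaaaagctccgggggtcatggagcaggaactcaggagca
Oas1a and Oas1b, which belong to the same gene family, carried the same 2 overlapping copies of the core, beginning 41 and 35 bases before the start in Oas1a and 59 and 53 bases before it in Oas1b. In Psmb8 the core began 4 bases before the start and in Irf7 69 bases before it, both on the opposite strand. The windows of Tap1 and Psmb9, which lie head to head on chr20, shared 44 bases, and the Tap1 window held the core while the Psmb9 window did not.

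The comparison asked whether these genes differed in liver between rats fed HMB and control rats. None of the 32 was called (0 of 32, limma, Benjamini-Hochberg adjusted p under 0.05 over all genes), where 1.72% of all genes were called, 0.957% lower and 0.76% higher in HMB. The count was also 0 without HMB 1 and 2, where 4.95% of all genes were called. It was 0 as well without HMB 3, 4 and 5 and with the poly-A covariate. In those fits 0% of all genes were called, so their count says nothing particular to the members. Most members lay lower in HMB, 25 of 32 (78.1%) against 53.5% of all genes, with a median log2 difference of -0.22 against -0.018 over all genes. At an unadjusted p under 0.05 there were 9 of 32 members (28.1%), 8 lower and 1 higher, where the shares of all genes were 24.9% in all and 13.4% lower. In none of the 32, on the probe set used for each, did the 5 HMB values and the 5 control values separate, where 6.12% of all genes did. The intervals were wide, so the p-values do not show that the members were alike in the groups.

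**Figure D1:**
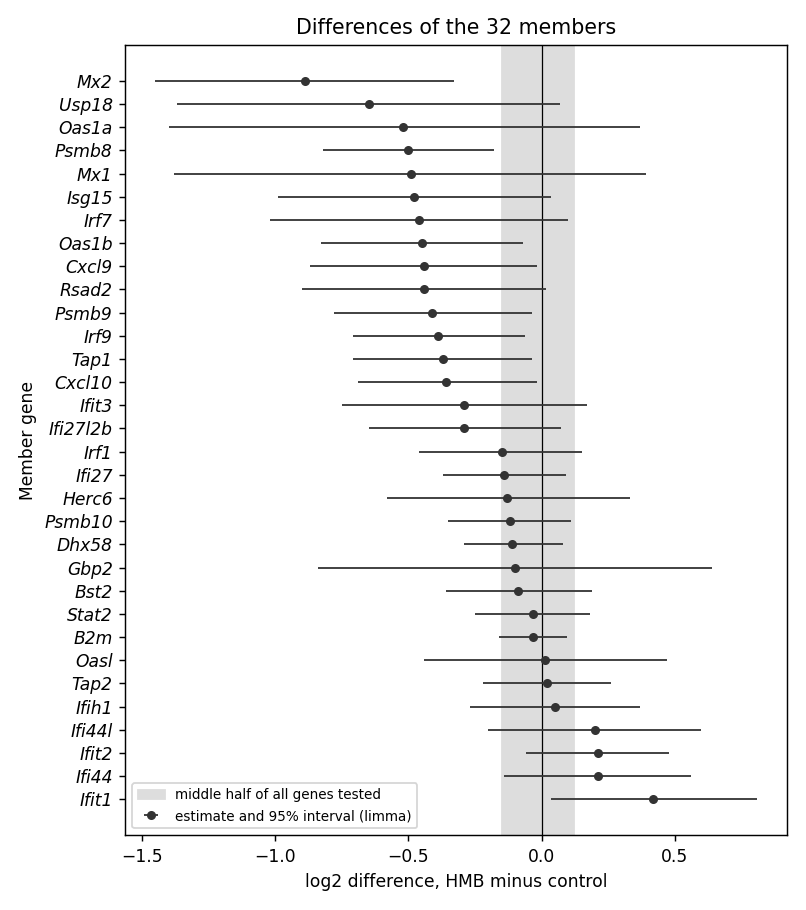
Log2 difference, HMB minus control, for the 32 members (points, with 95% limma intervals as bars), and the range between the quartiles of all genes tested (grey band, -0.15 to 0.12). Mx2 lies farthest to the left at -0.89 and Ifit1 farthest to the right at 0.42, and no member passed the adjusted test.

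The median rested on a gap in the middle of the list, because the members on either side of it differed by -0.29 and -0.15. Leaving out control 4 gave -0.12, leaving out HMB 4 gave -0.13, and leaving out control 5 gave -0.34. With Rig1 added, the median of 33 genes was -0.15.

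Controls 2 and 4 stood high and HMB 4 low. The members' median was nearer to 0 when any 1 of these 3 was left out alone (-0.16 without control 2). Leaving out HMB 2, the next lowest animal, left it at -0.22. For each array the mean over the 32 members was taken after subtracting each member's control mean. On this log2 scale controls 1 to 5 stood at -0.093, 0.34, -0.29, 0.29 and -0.24, and HMB 1 to 5 at -0.16, -0.33, 0.017, -0.44 and -0.21. Control 2 and control 4 lay above every HMB array, while controls 1, 3 and 5 lay inside the HMB range. The largest value among the controls was in control 2 or control 4 for 25 of 32 members (78.1%), against 39.2% of all genes. Both were the highest pair of controls for 19 members (59.4%), against 9.11% of all genes. At the low end, HMB 4 lay below the lowest control for 20 of 32 members (26.7% of all genes) and HMB 2 for 14 (20.7% of all genes). HMB 3 did so for 3 members (27% of all genes) and lay above the highest control for 5 (21.3% of all genes).

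**Figure D2:**
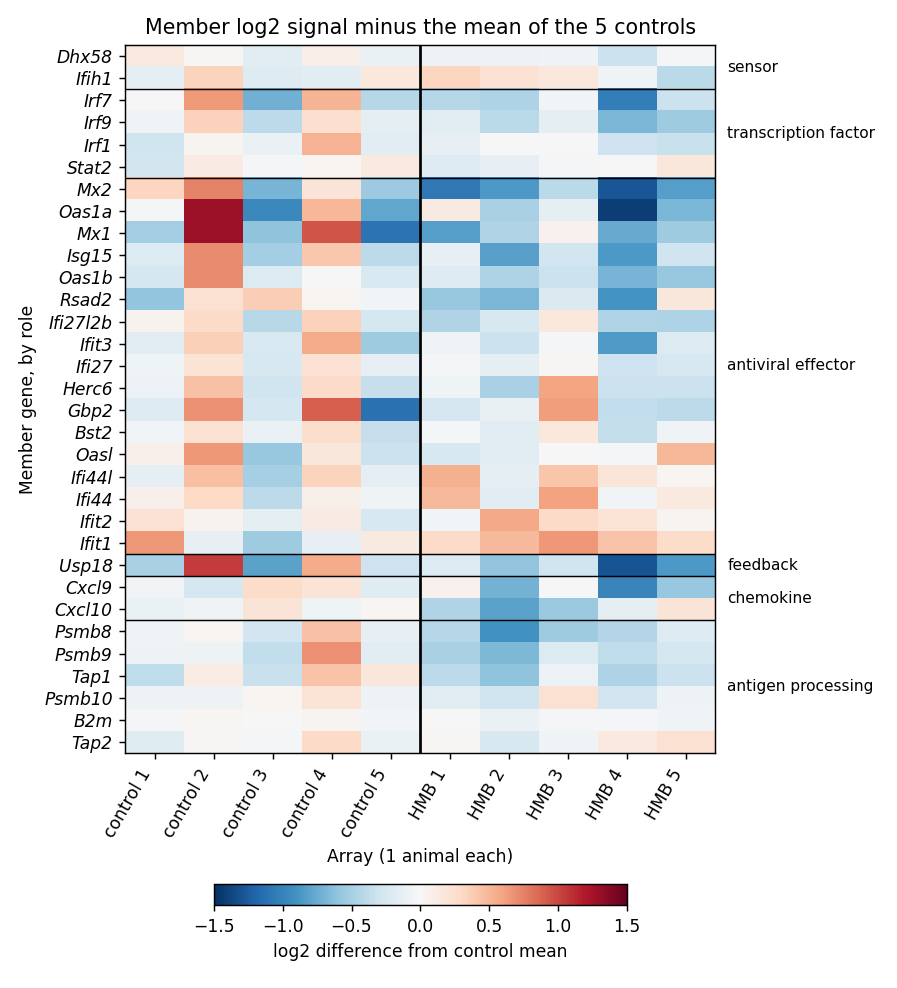
Heat map of log2 signal minus the mean of the 5 controls, with 1 row per member grouped by role and 1 column per animal. Red columns for control 2 and control 4 run through the antiviral effectors, blue runs through HMB 4, and the antigen processing rows are red mainly in control 4.

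Many members varied together from animal to animal. As a description, each member was set against the mean of the other members over 10 arrays, after centring both groups on their own mean. Pearson's r was above 0.8 for 14 members, led by Irf7 (0.957), Ifi27 (0.941) and Isg15 (0.931). It was below 0.3 for 8, among them Ifit1 (-0.0027) and Cxcl10 (-0.28). These points share arrays and their normalization. Spread among controls exceeded that among HMB animals in 22 of 32 members (68.8%, against 48.5% of all genes), with a median control SD of 0.34 log2 units where that of all genes was 0.15. The median SD of the members in HMB, 0.27, also lay above that of all genes, 0.16. Of the 42 leukocyte markers described below, 31 (73.8%) likewise spread more among controls.

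Markers of immune cells and of some other cell types also varied among the animals. For Kupffer cells and macrophages, 9 of 11 listed markers were measured, with 0 called and a median difference of -0.012, and their mean log2 level ran from 6.75 to 8.57 in controls and from 7.41 to 8.15 in HMB. On the scale centred on controls, controls 1 to 5 were at 0.036, 0.20, -0.33, 0.96 and -0.87, and HMB 1 to 5 at -0.16, -0.10, 0.53, -0.20 and 0.028. Control 4 and HMB 3, the highest of their groups, were also at or near the top for the members, while control 2 was highest for the members and only moderately raised here. The 42 measured markers of macrophages, lymphocytes, neutrophils and leukocytes in general together ran from 4.55 to 5.39 in controls and from 4.82 to 5.16 in HMB, with control 2 at 4.97 and control 4 at 5.39. Of 13 measured T and NK cell markers 0 were called and 9 lay above 0. An unadjusted limma p under 0.05 was found for 3 (23.1%), where 24.9% of all genes had one. The defining T cell markers Cd3d, Cd3e and Cd3g were dim, with control means of 2.41, 3.39 and 3.24. None of the other marker lists (B and plasma cells, plasmacytoid dendritic cells, neutrophils, endothelial, stellate, biliary and erythroid cells) had a gene called either. On the scale centred on controls, control 4 was highest of all animals for endothelial (0.61), stellate (0.35) and biliary (0.44) markers too. Control 5 was lowest of all animals for endothelial (-0.58) and stellate (-0.25) markers. The 3 measured erythroid markers had a median difference of 0.39, and Slc4a1 ran from 2.75 to 3.27 in controls and from 3.35 to 3.71 in HMB, with no overlap (0.39, limma adjusted p = 0.0728). The plasmacytoid list, with a median of -0.19, holds Bst2, a member here. The mean of the 7 hepatocyte markers varied little, from 13.28 to 13.48 over the 10 arrays. The dimmest of them, Hnf4a, varied more, from 11.22 in HMB 4 to 11.99 in control 5. The part of any of these cell types in the members' differences was not tested.

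**Figure D3:**
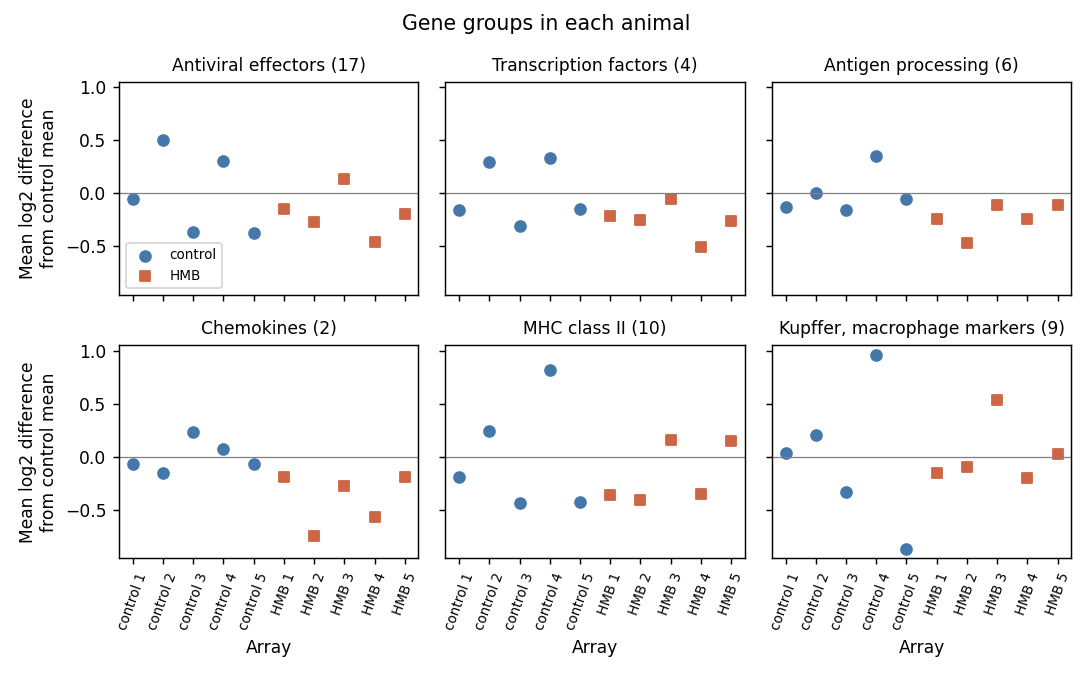
Mean log2 difference from the control mean for 6 gene groups in each of the 10 animals (circles, controls; squares, HMB; number of genes in brackets). Antiviral effectors are highest in control 2 (0.50) and control 4 (0.30), antigen processing genes in control 4 alone (0.35), and Kupffer cell markers in control 4 (0.96) and HMB 3 (0.53).

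Among the sensors, which detect viral RNA in the cytoplasm, neither measured member was called. Ifih1, which encodes MDA5, differed by 0.049 (95% interval -0.27 to 0.37), and Dhx58, which encodes LGP2, by -0.11 (-0.29 to 0.080). Both groups overlapped in both genes. Rig1, the RIG-I sensor outside the match by symbol, differed by -0.11 (-0.32 to 0.10). Its adjusted p by limma was 0.507 in the fit over all probe sets, where 1.7% of probe sets were called.

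Of the 4 transcription factors 0 were called, and all 4 estimates were negative. Irf9, the DNA-binding partner of STAT2, had log2 signals of 6.87, 7.27, 6.53, 7.18 and 6.79 in controls 1 to 5 and of 6.77, 6.52, 6.78, 6.24 and 6.39 in HMB 1 to 5. HMB 2, 4 and 5 lay below every control, and HMB 1 and HMB 3 lay inside the control range. The difference was -0.39 (95% interval -0.71 to -0.062, adjusted p by limma 0.143), and a second Irf9 probe set gave -0.28. Irf7, the factor that amplifies type I interferon production, was at 7.04, 7.69, 6.33, 7.55 and 6.62 in controls 1 to 5 and at 6.62, 6.58, 7.01, 6.01 and 6.72 in HMB 1 to 5. Controls 2 and 4 were the only values above 7.04, and the difference was -0.46 (-1.02 to 0.10), or -0.30 without control 2. Irf1, which is induced by interferon gamma, was at 6.99, 7.33, 7.19, 7.81 and 7.12 in controls and at 7.17, 7.28, 7.28, 6.98 and 6.95 in HMB. Apart from control 4 the Irf1 values of both groups ran over much the same range, and the difference was -0.15 (-0.46 to 0.15). Stat2 was at 8.43, 8.83, 8.68, 8.74 and 8.86 in controls and at 8.52, 8.59, 8.69, 8.70 and 8.88 in HMB, a difference of -0.034 (-0.25 to 0.18). A dimmer Stat2 probe set gave -0.24 (-0.41 to -0.059, limma adjusted p = 0.119 over probe sets). On it all HMB values (7.79 to 8.10) lay below all controls (8.13 to 8.33), and the difference between the probe sets was not tested.

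The 17 measured antiviral effectors had 0 called, with 12 below 0 and 5 above, and a median of -0.14. Mx2, a GTPase of the myxovirus resistance family, had the most negative difference and the smallest p of all members. Its log2 signals were 5.77, 6.19, 4.75, 5.64 and 4.90 in controls 1 to 5 and 4.38, 4.59, 5.05, 4.17 and 4.62 in HMB 1 to 5. All HMB animals except HMB 3 lay below every control, and HMB 3 lay above controls 3 and 5. The means were 5.45 ± 0.61 (SD, n = 5) and 4.56 ± 0.33, a difference of -0.89 (95% interval -1.45 to -0.33, limma adjusted p = 0.0822). A dimmer Mx2 probe set gave -0.25 (limma adjusted p = 0.713 over probe sets), with the lowest value in HMB 4 (2.64) and the highest in control 2 (5.33). Its relative Mx1 spread more widely among controls, from 3.76 to 6.15 with an SD of 1.05, and differed by -0.49 (-1.38 to 0.39). Mx1 differed by -0.17 without control 2, by -0.26 without control 4 and by -0.77 without control 5.

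Oas1a, which makes the 2-5 oligoadenylates that activate RNase L, was at 5.93, 7.25, 4.99, 6.46 and 5.18 in controls 1 to 5. In HMB 1 to 5 it was at 6.10, 5.47, 5.83, 4.55 and 5.28. Controls 2 and 4 stood above all HMB animals, controls 3 and 5 stood below all of them but HMB 4, and the difference was -0.52 (-1.40 to 0.37). For Oas1a it was -0.19 without control 2 and -0.29 without HMB 4. Oas1b, another member of that family, was dim, with 4 of 5 HMB animals below every control and a difference of -0.45 (-0.83 to -0.068, adjusted p by limma 0.146), or -0.27 without control 2. Oasl differed by 0.013 (-0.44 to 0.47). The probe set shared by Oas1g and Oas1i differed by -0.040 (-0.38 to 0.30), and it cannot be split between them.

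Isg15, the ubiquitin-like modifier, differed by -0.48 (-0.99 to 0.036; -0.30 without control 2), with 7.76 in control 2 and 7.46 in control 4 above every other animal. Usp18, which removes ISG15 from proteins and damps interferon receptor signalling, was at 6.83, 8.37, 6.51, 7.87 and 7.00 in controls 1 to 5. In HMB 1 to 5 Usp18 was at 7.11, 6.72, 7.02, 6.02 and 6.46. Controls 2 and 4 again stood apart at the top, HMB 4 was lowest, and the difference was -0.65 (-1.37 to 0.070, limma adjusted p = 0.24), or -0.39 without control 2. Herc6, an ISG15 ligase in rodents, differed by -0.13 (-0.58 to 0.33).

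Rsad2, the antiviral enzyme viperin, differed by -0.44 (-0.90 to 0.015) but had its highest value in control 3 (6.73), not in control 2 or 4. Gbp2, a guanylate-binding protein, ran from 3.44 to 5.46 in controls and from 4.16 to 5.18 in HMB, and differed by -0.10 (-0.84 to 0.64). Among members with brighter probe sets, Ifi27 differed by -0.14 (-0.37 to 0.092), Ifi27l2b by -0.29 (-0.65 to 0.073) and Bst2, which tethers virus particles to the cell surface, by -0.088 (-0.36 to 0.19). Each of these 3 was highest in control 4, with control 2 next. Ifit3 differed by -0.29 (-0.75 to 0.17), and by -0.15 without control 4 or without HMB 4.

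The effectors with positive estimates were Ifit1, Ifit2, Ifi44, Ifi44l and Oasl. Ifit1, an RNA-binding protein that blocks translation of viral messages, was at 4.55, 3.77, 3.36, 3.78 and 4.03 in controls 1 to 5 and at 4.19, 4.38, 4.55, 4.32 and 4.17 in HMB 1 to 5. All HMB animals were above controls 2 to 5, and control 1 was as high as the highest HMB animal. The difference was 0.42 (95% interval 0.037 to 0.81, limma adjusted p = 0.167), and without control 1 it was 0.58 with an adjusted p of 0.0321, the 1 call of a member in any fit. In that fit 7.13% of all genes were called. The Ifit1 probe set was dim, with a mean of 4.11 over all arrays, where the array medians ran from 4.33 to 4.41. Ifit2 was at 7.42, 7.26, 7.06, 7.33 and 6.96 in controls and at 7.17, 7.77, 7.49, 7.41 and 7.25 in HMB, a difference of 0.21 (-0.058 to 0.48), or 0.12 without HMB 2. HMB 2 and HMB 3 lay above all controls and the other HMB animals did not. A second Ifit2 probe set gave -0.15 (limma adjusted p = 0.562 over probe sets), the opposite sign. Ifi44 was at 5.76, 5.99, 5.30, 5.76 and 5.63 in controls and at 6.17, 5.53, 6.29, 5.65 and 5.84 in HMB, a difference of 0.21 (-0.14 to 0.56), or 0.11 without control 3 or without HMB 3. HMB 1 and HMB 3 lay above all controls, and the groups otherwise overlapped. Its neighbour in the family, Ifi44l, differed by 0.20 (-0.20 to 0.60), with values from 0.076 without control 3 to 0.31 without control 2.

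**Figure D4:**
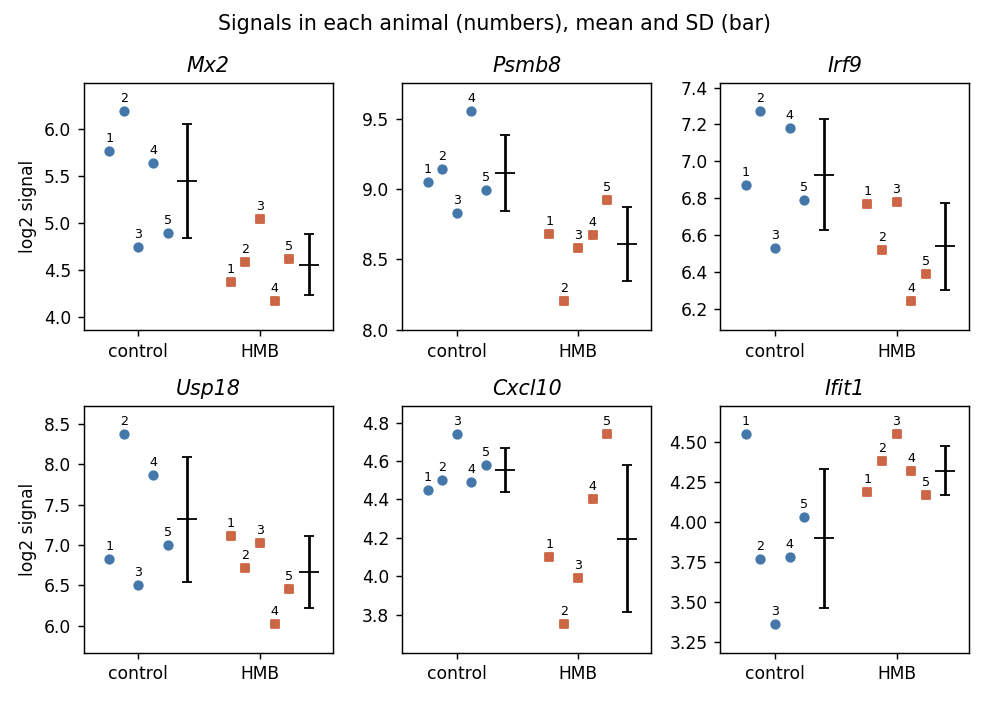
Log2 signal of 6 members in each animal (points numbered by replicate; circles, controls; squares, HMB), with the mean and SD of each group as a bar. In Usp18 controls 2 and 4 stand above all others, in Mx2 and Psmb8 4 of 5 HMB animals lie below every control, and in Ifit1 control 1 lies level with the highest HMB value.

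The chemokines Cxcl9 and Cxcl10, ligands of the lymphocyte receptor CXCR3, showed a different pattern over the animals. Cxcl10 was at 4.45, 4.50, 4.74, 4.49 and 4.58 in controls 1 to 5 and at 4.10, 3.75, 3.99, 4.40 and 4.74 in HMB 1 to 5. The controls were close together (SD 0.12), 4 of 5 HMB animals lay below all of them and HMB 5 matched the highest. The difference was -0.36 (-0.69 to -0.017, limma adjusted p = 0.182). Cxcl9 differed by -0.44 (-0.87 to -0.017, adjusted p = 0.186) with its lowest values in HMB 4 (6.36) and HMB 2 (6.65), and its second probe set gave -0.60. Averaged over both genes, control 2 was the lowest control (-0.16 from the control mean) and control 3 the highest (0.23), and the HMB animals ran from -0.75 to -0.19.

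Antigen processing genes supply peptides to MHC class I, and 5 of 6 measured members lay below 0, with 0 called and a median of -0.25. Psmb8, a catalytic subunit of the immunoproteasome, was at 9.05, 9.14, 8.83, 9.55 and 8.99 in controls 1 to 5 and at 8.68, 8.20, 8.58, 8.67 and 8.92 in HMB 1 to 5. All HMB animals except HMB 5 lay below every control, and HMB 5 lay just above control 3. The means were 9.11 ± 0.27 (SD, n = 5) and 8.61 ± 0.26, a difference of -0.50 (95% interval -0.82 to -0.18, limma adjusted p = 0.0857). Psmb9, its partner subunit, was at 8.45, 8.45, 8.16, 9.21 and 8.36 in controls and at 8.04, 7.85, 8.32, 8.14 and 8.26 in HMB. Control 4 stood far above the rest, and the difference was -0.41 (-0.78 to -0.037, adjusted p = 0.165), or -0.24 without control 4. Psmb10, the third inducible subunit, was at 7.43, 7.43, 7.54, 7.72 and 7.44 in controls and at 7.34, 7.21, 7.74, 7.22 and 7.44 in HMB, a difference of -0.12 (-0.35 to 0.11). HMB 1, 2 and 4 lay below every control, and HMB 3 had the highest Psmb10 value of all animals. Psmb5 and Psmb7, constitutive subunits that the inducible ones replace, differed by -0.025 (-0.16 to 0.11) and 0.10 (-0.081 to 0.27).

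Tap1, which with TAP2 forms the transporter of peptides into the endoplasmic reticulum, was at 6.81, 7.30, 6.85, 7.62 and 7.36 in controls and at 6.80, 6.59, 7.10, 6.73 and 6.87 in HMB. The difference was -0.37 (-0.71 to -0.035, limma adjusted p = 0.164), with controls 1 and 3 among the HMB values. A very dim second Tap1 probe set, from 2.69 to 3.06 over the arrays, gave 0.17 (adjusted p = 0.193 over probe sets), the opposite sign. Tap2 was at 6.56, 6.75, 6.71, 7.03 and 6.64 in controls and at 6.75, 6.50, 6.67, 6.89 and 6.97 in HMB, a difference of 0.020 (-0.22 to 0.26). B2m, the light chain of MHC class I, was at 13.53, 13.58, 13.55, 13.60 and 13.51 in controls and at 13.55, 13.46, 13.54, 13.54 and 13.50 in HMB. Its probe set was very bright, its SD was 0.036 in controls and 0.037 in HMB, and the difference was -0.033 (-0.16 to 0.095). A dimmer B2m probe set gave -0.10 (adjusted p = 0.527 over probe sets). Over the 6 genes control 4 was raised by 0.35 while control 2 was at 0.0031, unlike the antiviral effectors, where control 2 was highest at 0.50.

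Other genes of the pathway, from lists that did not include the members, showed 1 call, where 1.72% of all genes were called. These lists held 15, 10, 26, 12, 10 and 2 measured genes, so 1 call is near the share over all genes. Of 15 measured genes for interferon receptors and JAK-STAT signalling, 1 was called lower, 0 were called higher and 14 did not pass. The 1 was Stat3, a factor of cytokine signalling, which ran from 8.59 to 9.04 in controls and from 8.03 to 8.58 in HMB. All HMB animals lay below all controls, though by little in HMB 5. Stat3 was lower by 0.59 log2 units (95% interval -0.85 to -0.34, adjusted p by limma 0.0384). The groups separated in 6.12% of all genes, and in these lists also in Pias1 and Canx, which were not called. That call was lost in 13 of 22 other settings, among them each fit without control 2, 3, 4 or 5 or without HMB 2, 3, 4 or 5 (adjusted p up to 0.0938 in these 8). In these 8 fits 0% to 1.1% of all genes were called. The share was 0% without control 2, 3 or 5 or HMB 2, where the loss says nothing particular to Stat3. The Stat3 difference stayed between -0.67 and -0.47 in all 22. Receptor chains differed in both directions without passing the test, Ifnar1 by 0.42 (0.13 to 0.70, adjusted p = 0.0944) and Ifngr2 by -0.28 (-0.49 to -0.073, adjusted p = 0.111).

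Among 10 measured genes of nucleic acid and Toll-like receptor sensing 0 were called, with 8 below 0. The smallest p were those of the adaptors Traf3 at -0.47 (limma adjusted p = 0.0631), Myd88 at -0.37 (adjusted p = 0.0643) and Ticam1 at -0.43 (adjusted p = 0.268). Of 26 other interferon-stimulated genes 0 were called and 22 lay below 0, with a median of -0.18. Isg20, an RNA exonuclease, differed by -0.32 (adjusted p = 0.127), Parp14 by -0.44 (adjusted p = 0.135) and Uba7, the enzyme that activates ISG15, by -0.33 (adjusted p = 0.175). The mean of these 26 genes was again highest in control 4 (0.30 above the control mean) and control 2 (0.19) and lowest in HMB 4 (-0.53). Of 12 genes of MHC class I and its loading 0 were called and 7 lay below 0, with a median of -0.039. Calr, a chaperone of class I folding, differed by -0.18 (adjusted p = 0.144), Canx, another such chaperone, by -0.13 (adjusted p = 0.273), and Tapbp, the tapasin that joins class I to the transporter, by 0.19 (adjusted p = 0.185).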

How the data were processed

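Liver RNA of 10 rats, 5 per group, was measured on 1 array each. The authors deposited log2 signal values per probe set, made with RMA per the submitters' processing notes, with no version given. These values were used as deposited. Groups followed the titles. Replicate numbers follow the order of deposition.

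Of 31042 probe sets other than 57 array controls, 20826 named 1 gene in the platform annotation, 436 several and 9780 none. Where an identifier led to a current RefSeq symbol (20758 probe sets), that symbol was used, giving 14217 genes with 1 probe set each (highest mean). HMB minus control was fitted with limma 3.58.1 (lmFit, eBayes) in R 4.3.3 on all 14217 genes, and a separate fit covered all probe sets. The threshold was a Benjamini-Hochberg adjusted p of 0.05 over all features. Intervals are 95% limma intervals. The fit was tested on simulated data.

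The members, gene lists and settings were chosen with earlier results of these data known. All members were named, with values per animal for transcription factors, antigen processing genes, the 3 lowest and 3 highest differences and the 3 smallest p, and others were added after their values were seen. From each other list the called genes or the 3 with the smallest p were named. Ifnar1, Ifngr2, and single values of other genes were chosen after they were seen. No detection calls were used. The number of arrays limits the precision.  Figures were drawn with matplotlib 3.10.9.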

Additional observations from a re-analysis of the deposited data

Results flagged for a closer look

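In groups of 5, an animal was singled out when its gap to the nearest other value, divided by the group's range, exceeded 0.71. This was checked in 66 groups of values and flagged 4, where chance alone gives about 1 in 20. The count is near that share, and the groups share arrays. Dhx58 in HMB had a ratio of 0.823, with HMB 4 at 5.90 below the next animal at 6.14. Oas1b in controls had a ratio of 0.732, with control 2 at 4.41 above the next at 3.69. Gbp2 in HMB had a ratio of 0.721, with HMB 3 at 5.18 above the next at 4.45. Psmb9 in controls had a ratio of 0.72, with control 4 at 9.21 above the next at 8.45. For the mean over all members, HMB 4 was the lowest and HMB 3 the highest of their group, and control 2 and control 4 were the highest pair of controls.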

How the results depend on the processing

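Over 22 other settings the number of members called by limma stayed at 0 except for 1 (Ifit1) without control 1, so that leaving out single animals gave a range of 0 to 1, and 9.38% to 34.4% of the members had an unadjusted p under 0.05, where 11.3% to 29.6% of all genes did. The median log2 difference of the members ranged from -0.34 to -0.12 over fits that left out 1 animal. It was -0.17 with HMB 1 counted as a control. In 24 of 32 members the sign was the same in all settings, and 21 of these were below 0 throughout. The number of genes called over the whole array, 244, was less stable. It was 82 after cyclic loess, 62 after quantile normalization, 659 with array weights, 30 with HMB 1 counted as a control, 0 with the poly-A covariate, 0 with HMB 3, 4 and 5 left out and 704 with HMB 1 and 2 left out, and without single animals it ran from 0 (without control 2, 3 or 5, or HMB 2) to 1014 (without control 1). In the fits with 0 called, 11.3% to 24.2% of all genes had an unadjusted p under 0.05. Causes of these shifts were not tested. No paired analysis was possible because the labels give no replicate numbers and pair no animals. Dim probe sets, such as those of Oas1b, Ifit3 and Ifit1, measure small differences poorly.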

Other observations

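MHC class II genes, which present peptides to helper T cells, had 0 of 10 called, but the beta chain gene RT1-Bb spread more than any member. Its log2 signals were 6.92, 7.56, 6.79, 8.20 and 6.84 in controls 1 to 5 and 4.51, 4.94, 4.15, 7.03 and 7.44 in HMB 1 to 5. HMB 1, 2 and 3 lay far below the other 7 animals, and HMB 4 and 5 lay inside the control range. The difference was -1.65 (95% interval -2.95 to -0.35, limma adjusted p = 0.127). Its alpha chain partner RT1-Ba was at 8.23, 8.60, 7.78, 9.36 and 7.86 in controls and at 9.19, 8.95, 10.19, 7.98 and 8.74 in HMB, and differed by 0.64 (-0.18 to 1.47, adjusted p = 0.305). Over 22 other settings RT1-Bb ran from -2.54 to -0.65, and RT1-Ba from -0.95, with the probe set of largest variance, to 0.90, so the sign of RT1-Ba depended on the probe set. Over all 10 class II genes control 4 was highest, 0.82 above the control mean, and the other controls ran from -0.44 to 0.24.

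The 5 genes outside the members whose values over the 10 arrays were most like the members' mean were Vopp1 (Pearson's r 0.948), the Fc receptor Fcgr3a (0.933), the class II loading gene RT1-DMa (0.916), Lgals3bp (0.915) and Slfn4 (0.914). They were picked for this likeness, and the arrays share normalization. Slfn4 was at 8.53 in control 2, 8.71 in control 4 and 8.56 in HMB 3, and between 7.04 and 7.89 in the other 7 animals. Their log2 differences between the groups ran from -0.52 for Vopp1 to -0.12 for Lgals3bp, with 0 of 5 called (limma adjusted p from 0.217 to 0.816).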
